A study of Mus musculus with 6 samples.

Results

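The genes of the lysosomal platform that brings mTORC1 to nutrients were examined in O4-purified cells of WT and Npc1-/- mice. They are the 5 Ragulator subunits *Lamtor1* to *Lamtor5*, the 4 Rag GTPases *Rraga*, *Rragb*, *Rragc* and *Rragd*, and the lysosomal arginine sensor *Slc38a9*. They were chosen by gene symbol, and all 10 were found among the 55492 genes of the expression table. Whole brains of P16 mice (16 days old) were dissociated, and cells carrying the O4 antigen, a surface lipid of late oligodendrocyte precursors and immature oligodendrocytes, were held on magnetic microbeads. There were 3 WT and 3 Npc1-/- mice, none of them treated, and 1 poly(A) RNA library was made per mouse. The mutants carry the Npc1 nih allele on both chromosomes and are F1 hybrids from Npc1+/- parents on BALB/cJ and C57BL6/J backgrounds; the controls are described as littermates. The mutation is present in every cell of the animal, not only in the oligodendrocyte lineage.

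mTORC1 is a kinase complex that promotes growth when amino acids and cholesterol are plentiful. Ragulator is a scaffold anchored in the lysosomal membrane by LAMTOR1, and it holds a pair of Rag GTPases, RagA or RagB joined to RagC or RagD. In the active state this pair recruits mTORC1 to the lysosomal surface, where the GTPase Rheb switches it on. SLC38A9 reports arginine in the lysosomal lumen to the same platform. NPC1 exports cholesterol from lysosomes, and the platform senses lysosomal cholesterol as well as amino acids. The question addressed was whether loss of NPC1 is accompanied by a change in the transcripts of the platform. Fewer cells of a type and less RNA per cell cannot be told apart in bulk samples.

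Expression is given as TPM, the abundance of transcripts per length scaled to a total common to all samples. For comparisons between genotypes TPM was divided by a size factor, which was 1.30, 1.11 and 1.04 in WT mice and 1.10, 0.855 and 0.727 in Npc1-/- replicates 1, 2 and 3, and the result is called scaled TPM. A log2 fold change is that of Npc1-/- relative to WT on log2(scaled TPM + 0.5), where the added 0.5 shrinks the changes of low genes. Genes averaging 0.5 TPM or more, 15245 in all, entered the limma fit. A gene was called when its two-sided p, adjusted by Benjamini-Hochberg over all of them, was below 0.05 and its log2 fold change was 0.1 or more in either direction. All 10 genes passed the filter.

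Depth, read from the steps between low values, lay between 40250000 and 50250000 fragments per library. *Npc1* itself had a scaled TPM of 41.1, 45.5 and 43.9 in WT mice and of 3.72, 5.17 and 4.35 in Npc1-/- samples, a log2 fold change of −3.17 (adjusted p = 0.000398 by limma). Of 10 markers of the oligodendrocyte lineage none was called, and their summed scaled TPM, most of which was *Mbp*, lay between 156001 and 215703 in WT mice and between 196712 and 376839 in Npc1-/- mice. Markers of other cells moved with genotype. The sum of 4 Purkinje cell markers was 197 to 228 in WT mice and 603 to 722 in Npc1-/-, with 3 called higher, and that of 6 neuron markers was 78.1 to 103 against 126 to 156, with 2 called higher. The sum of 5 microglia markers was 90.2 to 149 against 39.2 to 65.9, with 1 called lower, and that of 4 perivascular macrophage markers was 12.1 to 21.0 against 2.99 to 4.65, with 2 called lower. Endothelial (3 genes, 383 to 557 against 273 to 331) and pericyte markers (3 genes, 247 to 359 against 145 to 193) had lower sums in every Npc1-/- sample, with none called. Of 6 activated microglia markers 4 were tested, and 2 had log2 fold changes above and 2 below 0, with none called. Their sum was 3243 to 3905 in WT mice against 2249 to 3148 in Npc1-/-, nearly all of it *Apoe*, a lipoprotein gene that astrocytes also express. *Lpl* had 3.94, 3.50 and 3.19 scaled TPM in WT mice and 2.05, 1.58 and 2.24 in Npc1-/- samples (log2 fold change −0.72, adjusted p = 0.0623 by limma). *Gpnmb* had 0.270, 0.208 and 0.289 scaled TPM in WT mice and 0.762, 1.82 and 2.41 in Npc1-/- samples (log2 fold change 1.44, adjusted p = 0.0639 by limma). *Trem2* had a log2 fold change of 0.04 (adjusted p = 0.938 by limma). For 4 astrocyte markers the sums overlapped, at 217 to 262 against 201 to 372, and none was called. Among them *Gfap* had higher values and *Aqp4*, *Aldh1l1* and *Slc1a3* lower values in every Npc1-/- sample. No marker on these lists was at 0 in any sample. The part of these cells in the results that follow was not tested.

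The promoters of 4 of the genes are shown because 3 of them belong to the genes with the highest fold changes and *Rragb* holds the most copies of the E-box CACGTG. MiT/TFE transcription factors, the regulators of lysosomal genes that mTORC1 holds in the cytoplasm, bind a motif built around this E-box. Each sequence runs 5′ to 3′ from 250 bases before to 50 bases after the RefSeq start of the gene (GRCm38.p6), and the capitals mark CACGTG, which reads the same on both strands.
Rragd promoter, chr4:32982748-32983047, plus strand: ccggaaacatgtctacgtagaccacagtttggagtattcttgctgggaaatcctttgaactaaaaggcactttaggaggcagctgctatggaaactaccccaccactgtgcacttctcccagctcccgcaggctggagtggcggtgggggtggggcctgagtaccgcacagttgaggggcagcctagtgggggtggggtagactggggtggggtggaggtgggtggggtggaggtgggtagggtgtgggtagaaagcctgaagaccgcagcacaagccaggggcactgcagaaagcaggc
Lamtor4 promoter, chr5:138255232-138255531, plus strand: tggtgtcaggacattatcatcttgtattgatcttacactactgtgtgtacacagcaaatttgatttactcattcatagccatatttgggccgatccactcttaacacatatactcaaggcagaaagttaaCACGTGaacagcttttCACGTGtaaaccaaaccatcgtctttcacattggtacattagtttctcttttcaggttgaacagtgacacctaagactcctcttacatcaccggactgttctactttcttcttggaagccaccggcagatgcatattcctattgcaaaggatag
Lamtor1 promoter, chr7:101905587-101905886, plus strand: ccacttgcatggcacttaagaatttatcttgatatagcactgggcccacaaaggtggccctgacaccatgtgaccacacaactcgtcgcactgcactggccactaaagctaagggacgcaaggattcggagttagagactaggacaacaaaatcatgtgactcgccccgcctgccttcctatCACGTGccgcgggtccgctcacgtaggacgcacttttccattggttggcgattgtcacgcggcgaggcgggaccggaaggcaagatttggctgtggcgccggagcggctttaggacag
Rragb promoter, chrX:153139708-153140007, plus strand: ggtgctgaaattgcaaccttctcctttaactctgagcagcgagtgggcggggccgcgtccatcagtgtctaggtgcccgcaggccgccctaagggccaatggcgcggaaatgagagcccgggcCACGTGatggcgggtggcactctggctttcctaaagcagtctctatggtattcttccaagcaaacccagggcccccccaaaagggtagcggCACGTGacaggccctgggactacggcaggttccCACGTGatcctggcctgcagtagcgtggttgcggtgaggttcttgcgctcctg
RefSeq gave a promoter for 9 of the 10 genes, all but *Lamtor3*. CACGTG was present in 4 of the 9, which were *Lamtor1*, *Lamtor4*, *Rragb* and *Rragc*, and in 7.15% of 32851 promoters of the same length. The latter include genes not expressed in these cells. The GC content of the 4 was 56.3%, 40.3%, 61.7% and 70.7%, against a median of 52.7% over all promoters. The part of base composition in the matches was not tested. *Rragb* had 3 copies, starting 127, 36 and 3 bases before the gene start. *Lamtor4* had 2, starting 120 and 104 bases before it. *Lamtor1* and *Rragc* had 1 each, 68 and 112 bases before it. The longer form TCACGTGA, which contains CACGTG and also reads the same on both strands, was in none of the 9 and in 0.974% of all promoters. *Rragd*, the gene with the highest fold change, had neither motif in this window. A match describes letters and is not a measured binding site.

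As levels, the 10 genes spanned a wide range of TPM. *Lamtor2* and *Lamtor1* were the most abundant, at 93.7 ± 11.1 and 88.8 ± 8.19 TPM (SD, n = 6 samples of both genotypes), and their ranges overlapped within each genotype. *Lamtor4* (55.4 ± 7.62), *Lamtor5* (45.1 ± 6.02) and *Rraga* (42.7 ± 8.74) came next, and neighbours in this trio overlapped as well. Below them the order was the same in all 6 samples: *Rragc* (23.9 ± 2.94), *Lamtor3* (17.4 ± 2.94), *Rragb* (11.8 ± 1.32), *Rragd* (4.20 ± 0.780) and *Slc38a9* (1.84 ± 0.320). In WT cells *Lamtor2* lay above 93.7% of the genes tested and *Slc38a9* above 18.8%. The low values rested on an estimated 350 to 781 fragments for *Rragd*, taken at lengths of 4295 to 5055 bases across samples. For *Slc38a9* the estimate was 397 to 630, taken at 8910 bases. Their shortest annotated transcripts have 452 and 681 bases, and shorter lengths would mean fewer fragments. Within Ragulator, whose subunits occur once each in the complex, the transcript of *Lamtor3* was thus less abundant than that of each of the other 4 subunits in every sample.

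**Figure D1:**
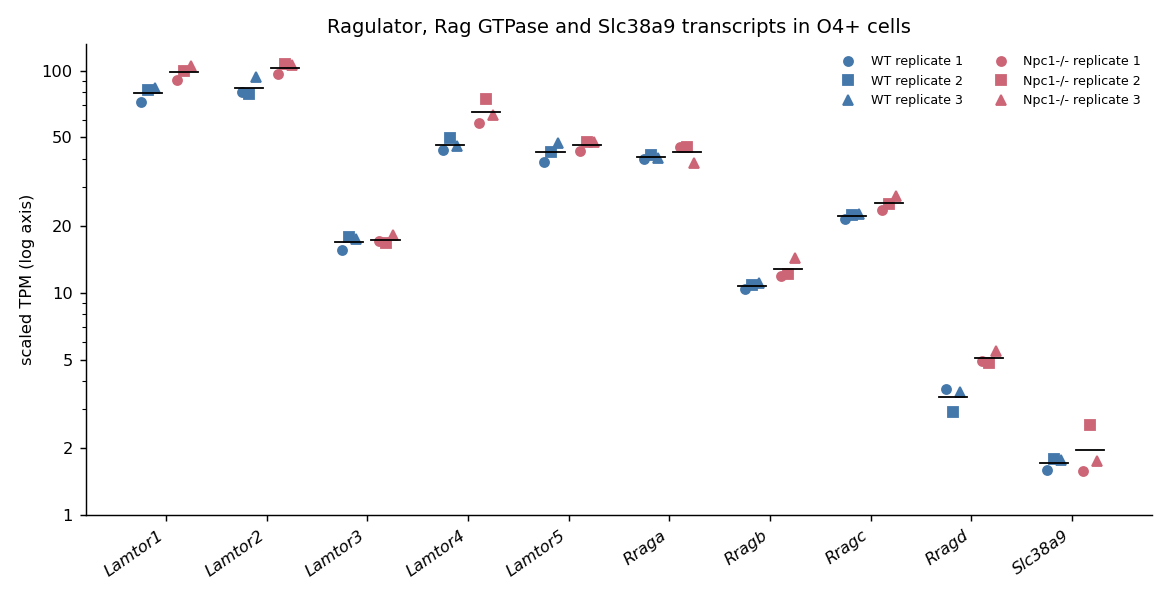
Scaled TPM (log axis) of the 10 genes in 3 WT (blue) and 3 Npc1-/- samples (red), with the replicate number given by the shape and the mean of each genotype by a line. *Lamtor1*, *Lamtor2*, *Lamtor4*, *Rragb*, *Rragc* and *Rragd* had all Npc1-/- values above all WT values, and the other 4 genes overlapped.

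None of the 10 genes was called, against 0.813% of all genes tested (124 of 15245, 61 higher and 63 lower with size factors, and 54 higher and 870 lower on TPM as deposited). Their log2 fold changes were all above 0, from 0.03 to 0.52 with a median of 0.21, whereas the median of all genes was 0.01 and 51.0% of them were above 0. In 6 of the 10 genes all Npc1-/- values exceeded all WT values, a separation found in 13.3% of all genes. At an unadjusted p below 0.05, 4 of the 10 were higher and 0 lower, against 10.6% and 11.6% of all genes. These counts have genotype as the sole factor. With a block for the replicate number, 3 of the 10 were called, and 2011 of all 15245 genes. The positive sign depended on the scaling. On TPM as deposited, where the median of all genes was −0.33, only *Lamtor4* and *Rragd* stayed above 0, and relative to that median 9 of the 10 genes were positive. The separation depended on it too. On TPM as deposited the genotypes overlapped in all 6 of the genes counted above. *Lamtor5* had all Npc1-/- values (34.81 to 47.72 TPM) below all WT values (47.74 to 50.47 TPM) there.

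Among the Ragulator subunits, *Lamtor4* showed the clearest difference. LAMTOR4 pairs with LAMTOR5, and their fold lies beside the LAMTOR2 and LAMTOR3 pair inside the wrap formed by LAMTOR1. *Lamtor4* (ENSMUSG00000050552, chromosome 5 of GRCm38, 138255482 to 138259398, plus strand) had a scaled TPM of 43.9, 49.6 and 45.8 in WT mice and of 58.0, 74.1 and 63.2 in Npc1-/- replicates 1, 2 and 3. All mutant samples lay above all controls, with a mean 39.3% higher by the fitted fold change. The log2 fold change was 0.48 (standard error, SE, 0.11, 95% interval 0.21 to 0.74, adjusted p = 0.0713 by limma), short of the threshold. *Lamtor5* (ENSMUSG00000087260, chromosome 3, 107278858 to 107284082, plus strand), its partner, had 39.0, 43.1 and 47.0 in WT mice and 43.3, 47.7 and 47.9 in Npc1-/- samples. These overlapped, with a log2 fold change of 0.11 (SE 0.10, 95% interval −0.12 to 0.34, adjusted p = 0.584 by limma).

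*Lamtor1* (ENSMUSG00000030842, chromosome 7, 101905904 to 101926675, plus strand), which carries the lipid anchor of the complex, had a scaled TPM of 72.5, 81.7 and 83.9 in WT mice and of 90.9, 99.95 and 105 in Npc1-/- samples. The genotypes did not overlap, and the log2 fold change was 0.31 (SE 0.10, 95% interval 0.08 to 0.54, adjusted p = 0.125 by limma). *Lrrc51* overlaps 600 exonic bases of *Lamtor1* on the opposite strand, and whether the counting used the strand is not stated. *Lrrc51* itself had between 1.94 and 5.43 TPM in the 6 samples, with a log2 fold change of −0.02. *Lamtor2* (ENSMUSG00000028062, chromosome 3, 88549819 to 88553074, minus strand) had 80.1, 78.5 and 93.1 in WT mice and 96.8, 107 and 106 in Npc1-/- samples. Its lowest mutant value was close to the highest control value, and the log2 fold change was 0.30 (SE 0.10, 95% interval 0.07 to 0.53, adjusted p = 0.139 by limma). *Lamtor3* (ENSMUSG00000091512, chromosome 3, 137918506 to 137928900, plus strand), the partner of LAMTOR2 and also a scaffold for MAP kinase signalling, had 15.6, 17.9 and 17.4 in WT mice and 17.1, 16.7 and 18.3 in Npc1-/- samples. The groups overlapped throughout, at a log2 fold change of 0.03 (SE 0.09, 95% interval −0.18 to 0.25, adjusted p = 0.878 by limma). The pseudogene *Gm5900* shares 236 stretches of 50 bases with *Lamtor3* and had 1.89, 2.92 and 1.17 TPM in WT mice and 1.45, 0.22 and 0.20 TPM in Npc1-/- samples, with a log2 fold change of −1.08 (adjusted p = 0.176 by limma). The part of reads split between these genes in the *Lamtor3* value was not tested. *Gm5510*, which resembles *Lamtor1*, reached at most 0.27 TPM, and *Gm15190*, which resembles *Lamtor5*, was listed at 0 in every sample.

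Because division by a size factor drops out of a ratio within a sample, the make-up of the Ragulator transcripts was also compared, as a description chosen after the values were seen. *Lamtor4* made up 17.5%, 18.3% and 15.9% of the summed TPM of the 5 genes in WT mice and 18.9%, 21.5% and 18.6% in Npc1-/- replicates 1, 2 and 3. *Lamtor5* made up 15.5%, 15.9% and 16.4% in WT mice and 14.2%, 13.8% and 14.1% in Npc1-/-, and *Lamtor3* 6.23%, 6.61% and 6.06% against 5.59%, 4.84% and 5.38%. In these 3 of the 5 shares the genotypes did not overlap. The shares of *Lamtor1* (29.4% ± 0.663 in WT mice and 29.8% ± 0.917 in Npc1-/-, SD, n = 3) and *Lamtor2* (31.1% ± 1.85 and 31.2% ± 0.359, SD, n = 3) overlapped. The shares describe unequal proportions between these samples and do not show which of the genes changed. A trend of fold change with transcript length, described below, does not drop out of such a ratio. *Lamtor3*, with 2726 bases, lies in a length class with a median log2 fold change of 0.01. *Lamtor2*, *Lamtor4* and *Lamtor5* lie in one with 0.24. The part of length in the shares was not tested. The summed scaled TPM of the 5 genes was 251, 271 and 287 in WT mice and 306, 345 and 340 in Npc1-/- samples. As deposited, the same sum was 325, 300 and 298 TPM in WT mice and 337, 295 and 247 TPM in Npc1-/- samples, which overlap.

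Among the Rag GTPases, *Rragd* stood out. RagC and RagD are alternative partners of RagA or RagB, and *Rragd* is a known target of MiT/TFE factors. *Rragd* (ENSMUSG00000028278, chromosome 4, 32983037 to 33022180, plus strand) had a scaled TPM of 3.68, 2.91 and 3.57 in WT mice and of 4.91, 4.83 and 5.48 in Npc1-/- replicates 1, 2 and 3. The 3 mutant values lay close together and above all controls. The log2 fold change of 0.52 (SE 0.13, 95% interval 0.23 to 0.82, adjusted p = 0.0764 by limma) was the highest of the 10 genes and did not pass. *Rragc* (ENSMUSG00000028646, chromosome 4, 123917446 to 123936997, plus strand) had 21.5, 22.3 and 22.6 in WT mice and 23.7, 25.2 and 27.3 in Npc1-/- samples. Its genotypes did not overlap either, at a smaller log2 fold change of 0.19 (SE 0.09, 95% interval −0.01 to 0.40, adjusted p = 0.251 by limma). *4930535I16Rik* overlaps 264 exonic bases of *Rragc* on the opposite strand and was not analysed here.

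The choice between paralogs was measured as the share of 1 gene in the TPM of the pair, which needs no size factor. *Rragd* made up 14.6%, 11.6% and 13.6% of *Rragc* plus *Rragd* in WT mice and 17.2%, 16.1% and 16.7% in Npc1-/- samples. The mean was 13.3% ± 1.56 in WT mice and 16.7% ± 0.540 in Npc1-/- (SD, n = 3), a difference of 3.39 percentage points with no overlap (p = 0.1 by a two-sided exact permutation test, which is the lowest p possible with 3 mice a group). *Rragc* remained the main transcript of the pair in every sample. *Rragb* made up 20.7%, 20.6% and 21.6% of *Rraga* plus *Rragb* in WT mice and 20.8%, 21.1% and 27.2% in Npc1-/- samples. The means of 21.0% ± 0.576 and 23.0% ± 3.64 (SD, n = 3) differed by 2.09 percentage points with overlap (two-sided exact permutation test, p = 0.5), and without Npc1-/- replicate 3 the difference was −0.016. These were the 2 paralog pairs compared, and neither could pass a threshold of 0.05 in this design.

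*Rraga* (ENSMUSG00000070934, chromosome 4, 86575668 to 86577285, plus strand), annotated with 1 transcript, had a scaled TPM of 40.1, 41.6 and 40.3 in WT mice and of 45.2, 45.4 and 38.4 in Npc1-/- samples. Replicates 1 and 2 of the mutant lay above the controls and replicate 3 below them, and the log2 fold change was 0.08 (SE 0.09, 95% interval −0.14 to 0.30, adjusted p = 0.693 by limma). *Rragb* (ENSMUSG00000041658, X chromosome, 153139981 to 153171943, plus strand) had 10.4, 10.8 and 11.1 in WT mice and 11.9, 12.1 and 14.4 in Npc1-/- samples. Every mutant value lay above the controls, with replicate 3 the highest, and the log2 fold change was 0.23 (SE 0.10, 95% interval −0.01 to 0.47, adjusted p = 0.240 by limma). That same sample had 15.6 TPM of *Xist*, the RNA of the inactive X chromosome, and the other 5 samples at most 0.01. Without it the log2 fold change of *Rragb* was 0.15 (adjusted p = 0.411 by limma). The part of sex in the *Rragb* value was not tested. Summed over the 4 Rag genes, scaled TPM was 75.7, 77.6 and 77.6 in WT mice and 85.7, 87.6 and 85.6 in Npc1-/- samples, and TPM as deposited overlapped (80.6 to 98.1 against 62.2 to 94.4). A Rag pair takes 1 member from each side, and *Rraga* plus *Rragb* exceeded *Rragc* plus *Rragd* by a ratio of 2.02 ± 0.0592 in WT mice and 1.84 ± 0.207 in Npc1-/- samples (SD, n = 3), with overlap.

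**Figure D2:**
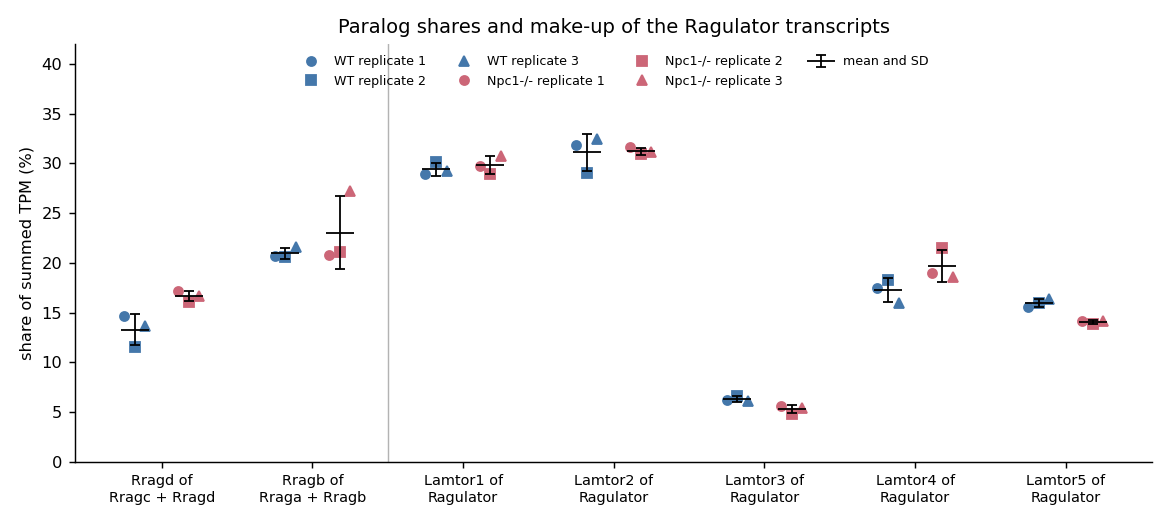
Share of summed TPM (percent) of *Rragd* and *Rragb* within their paralog pairs, left of the line, and of each *Lamtor* gene within the 5 Ragulator genes, right of it, with 3 WT (blue) and 3 Npc1-/- samples (red) and their mean and SD. The *Rragd* and *Lamtor4* shares were higher and the *Lamtor3* and *Lamtor5* shares lower in every Npc1-/- sample, and the *Rragb* share of 27.2% in Npc1-/- replicate 3 stood apart.

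*Slc38a9* (ENSMUSG00000047789, chromosome 13, 112660751 to 112738749, plus strand) had a scaled TPM of 1.59, 1.78 and 1.76 in WT mice and of 1.57, 2.54 and 1.75 in Npc1-/- replicates 1, 2 and 3. Replicates 1 and 3 of the mutant lay within or below the control range and replicate 2 well above it. The log2 fold change was 0.13 (SE 0.18, 95% interval −0.29 to 0.55, adjusted p = 0.727 by limma), and it was −0.03 without Npc1-/- replicate 2. The antisense gene *Gm47827*, which overlaps 182 of its exonic bases, was listed at 0 in every sample.

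Across 15230 genes, which are no independent replicates, longer transcripts had lower log2 fold changes (Spearman correlation −0.26), from a median of 0.24 for genes whose longest transcript has up to 1000 bases to −0.12 above 8000 bases. *Lamtor2*, *Lamtor4* and *Lamtor5* fall in the shortest class, with longest transcripts of 668, 980 and 881 bases. Against the class median of 0.24, the 0.30 of *Lamtor2* was little higher and the 0.11 of *Lamtor5* lower. After the smooth trend with transcript length had been taken out of every sample, the log2 fold change was 0.10 for *Lamtor2*, −0.05 for *Lamtor5* and 0.34 for *Lamtor4* (adjusted p = 0.514, 0.771 and 0.108 by limma). *Lamtor1* kept 0.28. *Rragd*, whose transcript of 5055 bases lies in a class with a median of −0.05, had 0.60 after this step (adjusted p = 0.0560 by limma). *Slc38a9*, with 8910 bases, had 0.26.

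**Figure D3:**
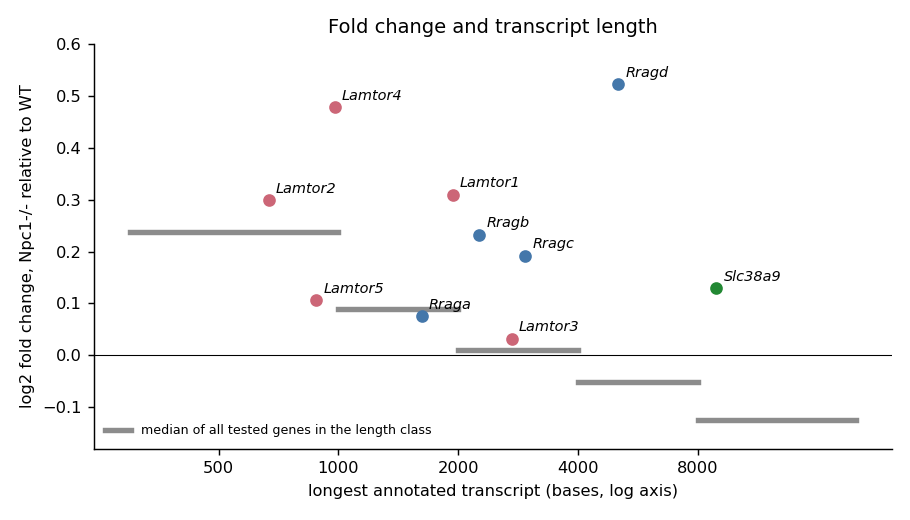
Log2 fold change (Npc1-/- relative to WT) against the longest annotated transcript (bases, log axis) for the Ragulator (red), Rag (blue) and *Slc38a9* (green) genes, with the median of all tested genes in 5 length classes as grey bars. *Rragd* at 0.52 lies far above the −0.05 of its class, whereas *Lamtor2* at 0.30 lies near the 0.24 of its own.

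**Figure D4:**
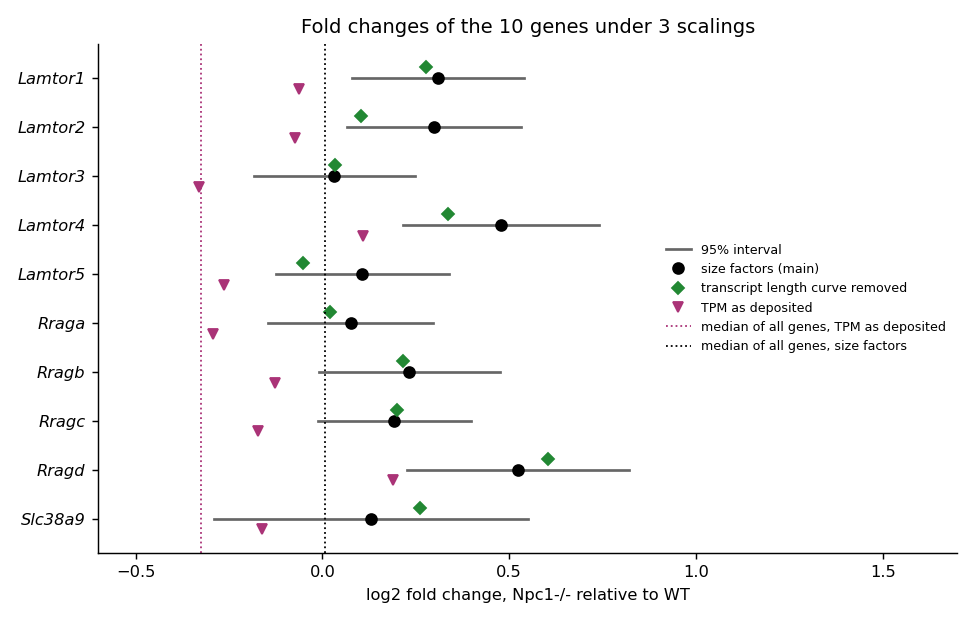
Log2 fold changes of the 10 genes (Npc1-/- relative to WT) with size factors (black, with the 95% interval), after removal of a transcript length curve (green) and on TPM as deposited (purple), with dotted lines at the all-gene medians. On TPM as deposited the genes shift down with the median of −0.33, and *Rragd* (0.19) and *Lamtor4* (0.11) stay above 0.

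The 3 genes outside the platform whose pattern over the 6 samples was most like the mean centred log2 profile of the 5 Ragulator genes were *Hapln2* (Pearson r = 0.998), the ribosomal protein gene *Rps13* (0.997) and *Bloc1s2* (0.997). High values were common: outside the 10 genes, 1088 genes had r above 0.9, where 15245 were tested in all. Each r rests on 6 samples, and the part of this small number in the count was not tested. The profile went from −0.23, −0.10 and −0.05 in WT to 0.03, 0.17 and 0.17 in Npc1-/- replicates 1, 2 and 3. *Hapln2*, a matrix link protein of the node of Ranvier, went from 42.9, 67.8 and 88.7 scaled TPM in WT to 116, 184 and 196 in Npc1-/- samples. Among the 10 genes themselves, r to this profile was 0.927 for *Rragc* and 0.266 for *Rraga*, the highest and lowest values outside Ragulator.

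The rest of the pathway was described by 12 lists with 71 genes, of which 69 were tested. *Tfec* was below the filter and *Kics2* was not analysed here. By limma 0 of the 69 were called, against 0.813% of all genes tested. At an unadjusted p below 0.05 there were 12 higher and 5 lower, against 10.6% and 11.6% of all genes. The same shares apply to the counts in the single lists that follow. Their median log2 fold change was 0.09, with 43 genes above and 26 below 0. BORC, a complex that binds Ragulator and moves lysosomes along microtubules, had 8 of 8 genes above 0 with a median of 0.23, and 4 of them had an unadjusted p below 0.05. *Bloc1s2*, a BORC subunit, had a scaled TPM of 22.3, 26.4 and 28.0 in WT mice and of 31.7, 38.3 and 39.4 in Npc1-/- samples. Its log2 fold change was 0.50 (SE 0.12, adjusted p = 0.0790 by limma), and its longest transcript has 885 bases, in the class with a median of 0.24. On TPM as deposited *Bloc1s2* had means of 29.1 in WT and 32.1 in Npc1-/- samples, with overlap. Most BORC genes had a lower mean in Npc1-/- samples on that scale.

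The V-ATPase, the proton pump that binds Ragulator and passes on amino acid signals, had 16 of 18 genes above 0 with a median of 0.19. At an unadjusted p below 0.05, 4 were higher and 1 lower, and none was called. *Atp6v0b*, of its membrane part, had 117, 121 and 122 in WT mice and 155, 170 and 139 in Npc1-/- samples (log2 fold change 0.36, SE 0.10, adjusted p = 0.0960 by limma). The folliculin complex, which activates RagC and RagD as a GTPase activating protein, had 2 of 3 genes above 0 with a median of 0.26. *Flcn* had 16.2, 17.5 and 18.2 in WT mice and 20.5, 22.8 and 22.0 in Npc1-/- samples (log2 fold change 0.33, SE 0.09, adjusted p = 0.0949 by limma). GATOR1, which switches off RagA and RagB, had 3 of 3 genes above 0 with a median of 0.17, and the smallest p was that of *Nprl2* (log2 fold change 0.21, adjusted p = 0.370 by limma). KICSTOR, which tethers GATOR1 to the lysosome, had 3 of 3 tested genes above 0 with a median of 0.13, led by *Kptn* (0.19, adjusted p = 0.366 by limma). GATOR2, which opposes GATOR1, had 2 of 5 above 0 with a median of −0.03, led by *Wdr59* (0.21, adjusted p = 0.273 by limma). These signs were obtained with size factors. On TPM as deposited, where the median of all genes was −0.33, most V-ATPase genes had a lower mean in Npc1-/- samples. So did every tested gene of the folliculin complex, GATOR1, KICSTOR and GATOR2. *Atp6v0b* had means of 137 TPM in WT and 139 TPM in Npc1-/- samples there, with overlap.

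The carriers that move amino acids across lysosomal and surface membranes went the other way, with 4 of 5 genes below 0 and a median of −0.30. In these 4 all Npc1-/- values lay below all WT values, as in 14.2% of all genes, and 3 had an unadjusted p below 0.05. *Slc7a5*, the leucine transporter LAT1, had a scaled TPM of 82.0, 55.5 and 65.6 in WT mice and of 22.3, 34.1 and 33.7 in Npc1-/- samples. Its log2 fold change was −1.17 (SE 0.20, 95% interval −1.64 to −0.69, adjusted p = 0.0526 by limma), which just missed the threshold. *Slc3a2*, the heavy chain that LAT1 needs, was named after its values were seen. It had 125, 93.2 and 105 in WT mice and 75.0, 78.2 and 81.1 in Npc1-/- samples, with a log2 fold change of −0.45 (SE 0.12, adjusted p = 0.0875 by limma). LAT1 is abundant in brain endothelium, and the endothelial and microglia marker sums given above were also lower in every Npc1-/- sample. Their part in the values of these carriers was not tested. The cytosolic amino acid sensors had 1 of 6 genes above 0 with a median of −0.13. *Castor1*, a cytosolic arginine sensor that restrains GATOR2, had 8.49, 11.9 and 12.05 in WT mice and 3.85, 7.24 and 7.21 in Npc1-/- samples (log2 fold change −0.81, SE 0.25, adjusted p = 0.121 by limma).

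In the lists of mTORC1, its regulators TSC and Rheb, and its targets, values were spread around 0. The mTORC1 subunits had 2 of 5 genes above 0 with a median of −0.02, and *Akt1s1* had the smallest p. For the TSC complex and Rheb, which gate the last step of activation, 3 of 5 were above 0 with a median of 0.02, led by *Tsc1* (log2 fold change 0.32, adjusted p = 0.195 by limma). For the mTORC1 substrates 2 of 5 were above 0 with a median of −0.14, led by *Rps6kb2* (0.48, adjusted p = 0.238 by limma). The MiT/TFE factors had 0 of 3 tested genes above 0, with a median of −0.02, and the smallest p was that of *Tfeb* (0.641 after adjustment by limma). Transcript levels do not report the activity or location of these proteins, which were not measured in these libraries.

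**Figure D5:**
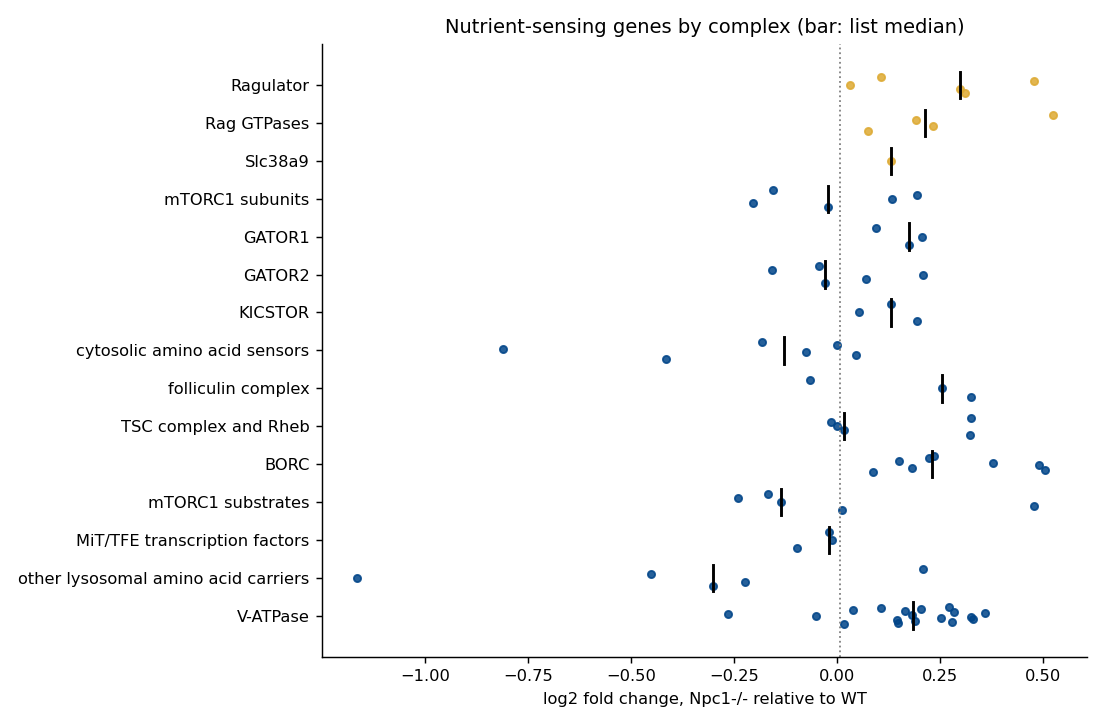
Log2 fold change (Npc1-/- relative to WT) of each tested gene (points) in the Ragulator, Rag and *Slc38a9* genes (yellow) and in 12 lists of the pathway (blue), with a bar at the median of each list and a dotted line at the median of all genes. With size factors, the Ragulator median of 0.30 and the BORC median of 0.23 lie above 0, and the carriers, with *Slc7a5* at −1.17, below it.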

How the data were processed

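Gene expression of O4-purified cells from 3 WT and 3 Npc1-/- mice was taken from 2 tables with 55492 genes. The authors deposited TPM (2 decimals) and FPKM, which rank the genes of a sample alike. The submitters' processing notes name cutadapt 2.3, STAR 2.7.8a, RSEM 1.3.3, FastQC 0.11.8 and MultiQC 1.7 with GRCm38/mm10, whereas the study's methods name bbduk, STAR, featureCounts and DESeq2; which of them made the tables, and whether strand was used, is not given in the sources used here. How reads shared by overlapping or near-identical genes were assigned is therefore open for the genes named with such partners.

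TPM was divided by median-of-ratios size factors over 18690 genes above 0 in every sample, since a few abundant transcripts change the TPM of all other genes. On log2(scaled TPM + 0.5), genes averaging 0.5 TPM or more were fitted in R 4.3.3 by limma 3.58.1 (eBayes, variance trend), genotype being the sole factor. TPM is not a count, so no count test was run. Paralog shares were compared by exact permutation over 20 arrangements, so that no p below 0.1 is possible. Python 3.11.15 was used for the rest. Depth was found by fitting low FPKM values of genes with 1 transcript to whole fragments; between 76.7% and 80.8% lay within 0.15 of a whole number. The model and the depth search were tested on simulated data. Positions and transcripts came from GENCODE M21 (GRCm38), which holds 55227 of the identifiers, and genes that resemble a named gene were found by shared stretches of 50 bases. An SD is the spread over the samples named with it. An SE comes from the limma fit, whose variance for a gene also draws on the other genes tested.

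The genes and lists were chosen with earlier results of these data known. Named were the 10 genes, *Npc1*, in each list the called genes and the gene with the smallest p, the 3 genes most like the Ragulator profile, and genes that overlap or resemble one of the 10. *Mbp*, *Apoe*, *Lpl*, *Gpnmb*, *Trem2*, the astrocyte markers, *Xist*, *Slc3a2*, *Tfec* and *Kics2* are named outside this rule. Alternatives were deposited FPKM or unscaled TPM as input, quantile normalization, a pseudocount of 0.1 or 1, no filter or a filter at 5 TPM, limma fitted without trend or robustly, removal of X, Y and mitochondrial genes, a transcript length curve spanning 0.3 of the genes, a block for the replicate number, and each sample left out in turn.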

Additional observations from a re-analysis of the deposited data

How the results depend on the processing

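No single gene of the 10 passed the threshold under 17 of the 18 alternatives. On TPM as deposited the log2 fold changes of 8 genes turned: −0.062 for *Lamtor1*, −0.073 for *Lamtor2*, −0.33 for *Lamtor3*, −0.26 for *Lamtor5*, −0.29 for *Rraga*, −0.13 for *Rragb*, −0.17 for *Rragc* and −0.16 for *Slc38a9*, so 2 genes in place of 10 were positive. The median of all genes moved by a like amount there. With the length curve *Lamtor5* was −0.052. Leaving out samples turned *Lamtor3* (−0.024 without WT replicate 1 and −0.0079 without Npc1-/- replicate 3, range −0.024 to 0.068) and *Slc38a9* (−0.034 without Npc1-/- replicate 2, range −0.034 to 0.243). The cause was not tested for these. Over the samples left out, the log2 fold change lay between 0.38 and 0.56 for *Lamtor4* and between 0.43 and 0.58 for *Rragd*, the number of the 10 genes above 0 between 9 and 10, the number called at 0, the *Rragd* share difference between 2.53 and 4.06 percentage points, and that of *Rragb* between −0.016 (without Npc1-/- replicate 3) and 3.20. *Npc1* stayed called under all 18 alternatives.

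Both genotypes number their samples 1 to 3. Deviations of same-numbered samples correlated at 0.414, 0.0602 and 0.326, which does not meet the limit of 0.1 in every pair, although each of the 6 samples correlated best with its own number. With a block for the replicate number, 2011 genes in place of 124 were called over all genes, among them 3 of the 10 (*Lamtor1*, adjusted p = 0.0324, *Lamtor4*, 0.0210, and *Rragd*, 0.0386, by limma) and 10 genes of the pathway lists; the share differences were 3.39 and 2.09 percentage points (exact sign-flip test, smallest p possible 0.25).

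Of the other pathway genes, 0 were called with size factors, 4 on TPM as deposited, 1 with quantile normalization, 1 with a mean TPM of at least 5 and between 0 and 1 with a sample left out (*Slc7a5* without Npc1-/- replicate 3). Over all genes the counts were, in the same order, 124, 924 and 225 of 15245, 447 of 9150 and, without Npc1-/- replicate 3, 486 of 15362. The filter at 5 removed *Rragd* and *Slc38a9*, and leaving out X, Y and mitochondrial genes removed *Rragb*. With 3 mice per genotype, the 95% intervals of the 10 genes were between 0.41 (*Rragc*) and 0.84 (*Slc38a9*) wide on the log2 scale.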
